A study of Mus musculus with 30 samples.

Results

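A set of 10 mouse genes at imprinted loci whose germline methylation mark is laid down in the oocyte were followed through testis cells of newborn to 14-day-old males: Peg3, Mest, Plagl1, Kcnq1ot1, Ndn and Snrpn, which the paternal chromosome expresses, and Grb10, Igf2r, Cdkn1c and Phlda2, which the maternal chromosome expresses. They were chosen by name, and all 10 of 10 had a row among the 20889 gene symbols of the deposited expression table. Values are FPKM, fragments per kilobase of transcript scaled to the number of mapped fragments, a level corrected for transcript length and library size.

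The mice were of strain C57BL/6. Newborns (postnatal day 0, P0) gave an OCT4-GFP group, sorted by flow cytometry for a GFP reporter of Oct4, and a THY1 group, enriched with magnetic beads against CD90.2. At P7 there were ID4-GFP and OCT4-GFP groups sorted for GFP, a VASA THY1 group, and KIT and THY1 groups taken with beads against CD117 and CD90.2. At P12 and P14 there were KIT and THY1 groups. THY1 beads enrich for undifferentiated spermatogonia and KIT beads for differentiating ones, the OCT4 reporter marks gonocytes and undifferentiated spermatogonia, and the ID4 reporter a fraction rich in stem cells. The protocol names a VASA-GFP sort at P0 only, so the age of the VASA THY1 group rests on its title. The table holds 1 value for each of 11 groups, made from 2 libraries in 5 of them (P0 THY1, and KIT and THY1 at P7 and P12) and from 1 library in the other 6. No spread between replicates can be computed, so every difference below lacks a replicate check and no test was run. Whether animals were pooled is not given in the sources used here.

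In an imprinted gene only the allele from 1 parent is active, and the choice is set by methylation of a control region in the germ line. The regions at these loci are methylated in oocytes, lose methylation in primordial germ cells, and stay free of it in the male germ line. On the paternal chromosome of body cells the unmethylated region is a working promoter, as in Peg3, Mest and Plagl1, or drives a long antisense RNA that silences neighbouring genes: Kcnq1ot1 for Cdkn1c and Phlda2, Airn for Igf2r. Many of these genes set growth of the fetus and are high in fetal mesenchyme and low in adult tissues. The level measured here is the sum over both alleles.

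Promoter windows of Mest, Plagl1 and Peg3, and of the start that Snrpn shares with Snurf, are shown so that their CG content can be seen. The expression table was made on another build, mm9, and no expression value is placed on these coordinates. Each runs 5′ to 3′ on the gene's strand, from 250 bases before to 50 bases after a start annotated by RefSeq on the build GRCm38.p6, and where a gene has several starts the window richest in CG is given. Capitals mark CG dinucleotides and the hexamer TGCCGC on either strand (GCGGCA on the printed strand where reversed); methylated TGCCGC is the core of the motif bound by ZFP57, a zinc finger protein that protects imprints in the embryo.
Mest: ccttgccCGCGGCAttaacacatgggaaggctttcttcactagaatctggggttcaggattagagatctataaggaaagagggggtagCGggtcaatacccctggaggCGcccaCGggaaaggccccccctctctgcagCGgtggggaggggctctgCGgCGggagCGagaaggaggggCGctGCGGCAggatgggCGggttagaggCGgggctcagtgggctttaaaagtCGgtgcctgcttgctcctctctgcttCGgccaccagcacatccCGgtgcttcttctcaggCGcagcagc
Plagl1: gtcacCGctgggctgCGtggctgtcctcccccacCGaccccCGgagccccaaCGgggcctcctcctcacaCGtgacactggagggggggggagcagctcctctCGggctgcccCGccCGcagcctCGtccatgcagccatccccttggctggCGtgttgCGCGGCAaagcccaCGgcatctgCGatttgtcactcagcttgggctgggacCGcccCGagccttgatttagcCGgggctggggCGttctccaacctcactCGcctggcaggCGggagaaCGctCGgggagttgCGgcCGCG
Peg3: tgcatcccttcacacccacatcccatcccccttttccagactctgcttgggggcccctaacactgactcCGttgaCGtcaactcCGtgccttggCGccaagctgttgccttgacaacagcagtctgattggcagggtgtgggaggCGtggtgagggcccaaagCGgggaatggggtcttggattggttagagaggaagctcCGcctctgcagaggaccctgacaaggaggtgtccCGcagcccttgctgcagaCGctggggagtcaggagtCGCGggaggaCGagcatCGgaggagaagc
Snrpn: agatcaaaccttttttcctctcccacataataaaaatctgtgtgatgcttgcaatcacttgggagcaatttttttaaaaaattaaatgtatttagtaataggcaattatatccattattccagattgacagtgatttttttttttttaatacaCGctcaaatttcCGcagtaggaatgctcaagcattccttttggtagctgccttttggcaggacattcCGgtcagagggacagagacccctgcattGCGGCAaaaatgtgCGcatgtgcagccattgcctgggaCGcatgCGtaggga
The Mest window lies at chr6:30737800-30738099 on the plus strand and holds 17 CG dinucleotides and 2 copies of the hexamer. The Plagl1 window, at chr10:13090582-13090881 on the plus strand, holds 26 and 1. The Peg3 window, at chr7:6730370-6730669 on the minus strand, holds 13 and 0. The Snrpn window, at chr7:60005150-60005449 on the minus strand, holds 7 and 1, and its letters are identical to those of the single Snurf window. All 4 thus hold at least the median CG count of 7 for the 32851 mouse windows of the same length, of which 11.6% contain the hexamer. Among the other members with an entry, the richest windows of Grb10, Igf2r and Phlda2 held 45, 34 and 26 CG dinucleotides, while Ndn held 11 and Kcnq1ot1 held 9. Only the Grb10 window among these 5 contained the hexamer, with 1 copy. The motif AAGATGG, a core of the sites bound by YY1, was present in 0 of the member windows and in 6.34% of all windows on either strand. Only 9 of the 10 members had a window (Cdkn1c had none), and each window covers 300 bases. With so few windows beside a share of 6.34%, a count of 0 does not show that these loci lack such sites.

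The groups differ in how many other cells of the testis came with the germ cells. Of 10 germ cell markers, 9 or 10 reached 1 FPKM in every group, and their summed level was 784 FPKM in P0 THY1 against 1212 to 2382 FPKM in the other 10 groups. Of 10 fibroblast and stroma markers (Lum, Dcn, Col1a1 and 7 more), all 10 reached 1 FPKM in P0 THY1 and none was at 0 in any group. Their summed level was 7143 FPKM in P0 THY1, 56.1 to 177 FPKM in the 3 GFP-sorted groups and VASA THY1, and 238 to 1571 FPKM in the other 6 groups. Fbln1, a marker of this list, went the other way outside P0 THY1. It had 23.6 to 32.5 FPKM in the GFP-sorted groups and 11.7 to 20.0 FPKM in the others. In P7 ID4-GFP, Fbln1 (29.5 FPKM) and Col1a1 (16.8 FPKM) made up most of the sum of 56.1 FPKM, and the median marker had 1.13 FPKM. The OCT4-GFP groups were not free of other cells: 6 macrophage markers summed to 213 FPKM at P0 and 147 FPKM at P7, against 3.30 to 51.4 FPKM in the groups other than these and P0 THY1 (239 FPKM). The P0 THY1 group therefore carried, by its markers, much stroma beside germ cells, and was not a pure germ cell sample. In bulk samples such as these, fewer cells of a type and less RNA per cell cannot be told apart. Low values that stand for whole fragments gave a step 0.957 to 2.04 times that of P14 THY1 in 9 groups, and 3.72 times in P7 THY1. The most common step held only 14.9% (P7 THY1) to 30.1% (P0 THY1) of the genes used, so all these estimates are uncertain. By these rough estimates, depth behind the low values was of the same order in most groups.

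Of the 10 genes, 7 were highest in P0 THY1, by a factor over the next group that ran from 1.64 for Igf2r to 5.31 for Grb10. Among the 14200 genes with at least 1 FPKM in 2 or more groups, 21.8% were highest there. The other 3 peaked elsewhere: Kcnq1ot1 in P12 KIT, Phlda2 in P7 OCT4-GFP and Snrpn in P7 THY1. Without P0 THY1, the highest group exceeded the lowest by 1.95 times for Igf2r, 3.59 times for Ndn and 3.89 times for Phlda2, but by 16.3 times for Kcnq1ot1, 17.6 times for Mest and 20.4 times for Plagl1. With 1 value per group, neighbours in these orders cannot be separated.

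**Figure D1:**
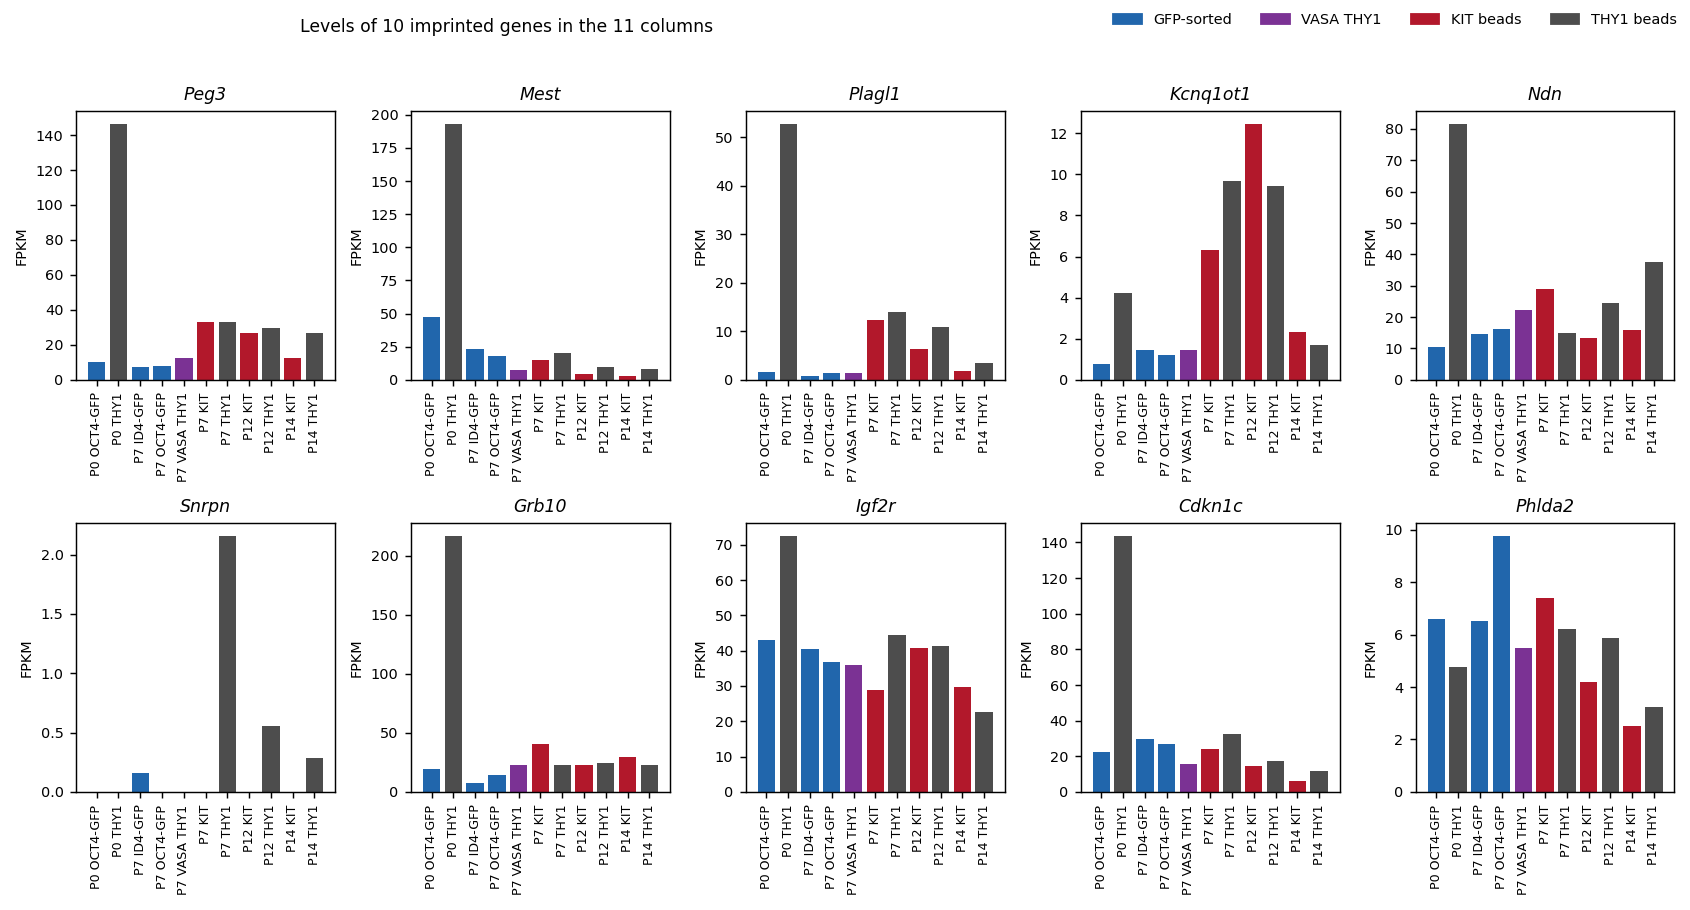
Level of each of the 10 genes in FPKM in each of the 11 groups, with no error bars because the table holds 1 value per group. P0 THY1 has the highest value for 7 genes, and Snrpn has less than 0.001 FPKM in 7 groups.

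Mest, a hydrolase-like protein of the endoplasmic reticulum that is abundant in fetal mesoderm, was lower at each later age of a selection. Its level was 47.6 FPKM in P0 OCT4-GFP and 18.2 FPKM in P7 OCT4-GFP, and 23.3 FPKM in P7 ID4-GFP. In KIT cells it was 14.8 FPKM at P7, 4.19 FPKM at P12 and 2.70 FPKM at P14. In THY1 cells it was 193 FPKM at P0, 20.0 FPKM at P7, 9.47 FPKM at P12 and 8.51 FPKM at P14, and P7 VASA THY1 had 7.16 FPKM. Each later age was thus lower than the one before in all 3 selections that span several ages. On the log2(FPKM + 1) scale, used for all differences given here, P7 minus P0 was -1.34 in OCT4-GFP cells and -3.21 in THY1 cells. P12 minus P7 was -1.60 in KIT cells and -1.01 in THY1 cells, and P14 minus P12 was -0.49 in KIT cells and -0.14 in THY1 cells, so the later step was the smaller. With VASA THY1 in place of P7 THY1, P12 minus P7 turned to 0.36, so the THY1 step between those ages rests on which P7 group is used. At each age from P7 on, Mest was lower in KIT than in THY1 cells, and the difference was -0.41 at P7, -1.01 at P12 and -1.36 at P14. The P7 difference turned to 0.95 with VASA THY1 as the THY1 group.

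Peg3, a zinc finger protein expressed in fetal and placental tissue and in the brain, separated sorted from bead-enriched cells. It stood at 9.93 FPKM in P0 OCT4-GFP, 8.15 FPKM in P7 OCT4-GFP, 7.20 FPKM in P7 ID4-GFP and 12.4 FPKM in P7 VASA THY1. In KIT cells it had 32.9 FPKM at P7, 26.9 FPKM at P12 and 12.2 FPKM at P14. In THY1 cells it had 146 FPKM at P0, 33.2 FPKM at P7, 29.4 FPKM at P12 and 26.8 FPKM at P14. The 3 sorted groups thus lay below every other group, the nearest being P14 KIT and VASA THY1. At P0 the difference of OCT4-GFP minus THY1 was -3.75, and at P7 it was -1.90. KIT minus THY1 was -0.01 at P7 and -0.12 at P12, and Peg3 was lower in KIT cells at P14, by a difference of -1.08. The P7 difference was 1.35 with VASA THY1 as the THY1 group.

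Plagl1, a zinc finger transcription factor that restrains cell growth, showed the widest range after Snrpn. Its level was 1.55 FPKM in P0 OCT4-GFP, 1.50 FPKM in P7 OCT4-GFP, 0.682 FPKM in P7 ID4-GFP and 1.49 FPKM in P7 VASA THY1. In KIT cells it was 12.4 FPKM at P7, 6.30 FPKM at P12 and 1.83 FPKM at P14. In THY1 cells it was 52.8 FPKM at P0, 13.9 FPKM at P7, 10.8 FPKM at P12 and 3.47 FPKM at P14. Both bead series were thus lower at each later age, and the sorted groups lay below every bead-enriched group other than VASA THY1. OCT4-GFP minus THY1 was -4.40 at P0 and -2.58 at P7. Markers of endothelium stood partly in the same order: the summed level of 5 such genes, none at 0, was 15.0 FPKM in P0 OCT4-GFP, 7.75 FPKM in P7 OCT4-GFP, 5.42 FPKM in P7 ID4-GFP and 6.29 FPKM in VASA THY1. The same sum was 138, 42.4 and 5.68 FPKM in KIT cells at P7, P12 and P14, and 173, 115, 66.8 and 22.4 FPKM in THY1 cells at P0, P7, P12 and P14. The part of these cells in the Plagl1 levels was not tested.

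Kcnq1ot1, the antisense RNA that starts in the control region inside Kcnq1 and silences its neighbours on the paternal chromosome, was low in sorted cells and at P14. It had 0.767 FPKM in P0 OCT4-GFP, 1.22 FPKM in P7 OCT4-GFP, 1.44 FPKM in P7 ID4-GFP and 1.45 FPKM in P7 VASA THY1. KIT cells had 6.33 FPKM at P7, 12.5 FPKM at P12 and 2.33 FPKM at P14. THY1 cells had 4.22 FPKM at P0, 9.65 FPKM at P7, 9.44 FPKM at P12 and 1.70 FPKM at P14. Both bead series were thus lowest at P14, with P14 minus P12 at -2.02 in KIT cells and -1.95 in THY1 cells. Airn, the antisense RNA at Igf2r, was also lower at that step, with 0.923 FPKM in P14 KIT against 7.13 FPKM in P12 KIT (difference -2.08) and 1.36 FPKM in P14 THY1 against 10.2 FPKM in P12 THY1 (-2.25). Kcnq1, which Kcnq1ot1 overlaps on the other strand, was between 0.198 and 0.840 FPKM in all 11 groups. The libraries are directional, but whether the counting used strand is not given in the sources used here, so reads of antisense partners may be shared.

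The 5 groups with the highest Peg3, Plagl1 and Kcnq1ot1 were in each case the 5 groups made from 2 libraries. Peg3 spanned 26.9 to 146 FPKM in these and 7.20 to 26.8 FPKM in the 6 groups made from 1 library, Plagl1 6.30 to 52.8 FPKM against 0.682 to 3.47 FPKM, and Kcnq1ot1 4.22 to 12.5 FPKM against 0.767 to 2.33 FPKM, in the same order. Airn split the same way, at 6.57 to 17.6 FPKM against 0.775 to 2.37 FPKM. A pair of other nuclear long RNAs, picked after their values were seen, did too: Malat1 had 488 to 1332 FPKM against 137 to 277 FPKM, and Neat1 had 18.8 to 105 FPKM against 2.07 to 5.85 FPKM. This split held for 3 of the 10 members and for 1004 (7.07%) of the 14200 genes. The number of libraries goes with selection and age, since both P14 groups and all sorted groups had 1 library, and the 3 cannot be told apart here. Every statement on low Peg3, Plagl1 and Kcnq1ot1 in sorted cells or at P14 carries this limit.

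Ndn, a MAGE family protein of nerve cells that restrains cell division and is silenced on the maternal chromosome through the Snrpn control region, was present in every group and its differences ran in opposite directions between selections. It had 10.5 FPKM in P0 OCT4-GFP, 16.1 FPKM in P7 OCT4-GFP, 14.5 FPKM in P7 ID4-GFP and 22.4 FPKM in P7 VASA THY1. KIT cells had 29.0 FPKM at P7, 13.2 FPKM at P12 and 15.9 FPKM at P14. THY1 cells had 81.7 FPKM at P0, 15.0 FPKM at P7, 24.6 FPKM at P12 and 37.7 FPKM at P14. In THY1 cells Ndn was thus lowest at P7 and higher at each later age, while KIT cells were highest at P7. KIT minus THY1 was 0.91 at P7, -0.85 at P12 and -1.19 at P14. The stroma sum beside these values was 395 FPKM in P7 KIT and 367 FPKM in P7 THY1 cells, 238 FPKM in P12 KIT and 554 FPKM in P12 THY1 cells, and 454 FPKM in P14 KIT and 1571 FPKM in P14 THY1 cells. The stroma sums at P7 were close, and the median of the 10 markers ran the other way, at 26.6 FPKM in P7 KIT and 31.6 FPKM in P7 THY1. Leydig cell markers did differ at P7, their sum over 6 genes being 1100 FPKM in KIT against 109 FPKM in THY1 cells. That sum was also higher in KIT cells at P12 (212 against 66.9 FPKM) and P14 (578 against 148 FPKM), where Ndn was lower in KIT cells. At P12 and P14 Ndn and the stroma sum stood in the same order. The part of stroma and Leydig cells in the Ndn levels was not tested.

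Snrpn, which encodes the splicing protein SmN, was close to absent in the table. It had 2.16 FPKM in P7 THY1, 0.557 FPKM in P12 THY1, 0.285 FPKM in P14 THY1 and 0.163 FPKM in P7 ID4-GFP, and less than 0.001 FPKM in the other 7 groups. Snurf, which shares the printed start and is read from the same transcript, had 10.02 FPKM in P0 OCT4-GFP, 4.91 FPKM in P7 OCT4-GFP, 6.51 FPKM in P7 ID4-GFP and 4.96 FPKM in P7 VASA THY1. KIT cells had 5.22, 3.85 and 2.60 FPKM of Snurf at P7, P12 and P14, and THY1 cells had 6.87, 5.39, 4.31 and 1.59 FPKM at P0, P7, P12 and P14. The locus was thus read in every group under the name Snurf, and how the authors' estimate divided fragments between the 2 names cannot be recovered from the table. No fold is given for Snrpn, and its levels cannot be taken as those of the locus. Snurf was lowest at P14 in both bead series.

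Cdkn1c, the cyclin-dependent kinase inhibitor p57, was lower with age in bead-enriched cells and level in sorted ones. It had 22.6 FPKM in P0 OCT4-GFP, 26.7 FPKM in P7 OCT4-GFP, 29.9 FPKM in P7 ID4-GFP and 15.9 FPKM in P7 VASA THY1. KIT cells had 24.0 FPKM at P7, 14.6 FPKM at P12 and 5.90 FPKM at P14. THY1 cells had 144 FPKM at P0, 32.7 FPKM at P7, 17.2 FPKM at P12 and 11.8 FPKM at P14. Sorted germ cells therefore lay between 22.6 and 29.9 FPKM at both ages, with P7 minus P0 at 0.23 in OCT4-GFP cells, whereas THY1 cells differed by -2.10 over the same step. From P7 on, Cdkn1c was lower at each later age in both bead series: P12 minus P7 was -0.68 in KIT and -0.89 in THY1 cells, and P14 minus P12 was -1.18 in KIT and -0.50 in THY1 cells. The THY1 value for P12 minus P7 turned to 0.10 with VASA THY1 in place of P7 THY1. KIT minus THY1 was -0.44 at P7, -0.22 at P12 and -0.89 at P14, and the P7 value turned to 0.56 with VASA THY1 as the THY1 group.

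Phlda2, a small pleckstrin homology protein that limits growth of the placenta, lies beside Cdkn1c under the same control region and was the only member other than Snrpn and Kcnq1ot1 not highest in P0 THY1. It had 6.60 FPKM in P0 OCT4-GFP, 9.77 FPKM in P7 OCT4-GFP, 6.53 FPKM in P7 ID4-GFP and 5.50 FPKM in P7 VASA THY1. KIT cells had 7.41 FPKM at P7, 4.21 FPKM at P12 and 2.51 FPKM at P14. THY1 cells had 4.77 FPKM at P0, 6.21 FPKM at P7, 5.88 FPKM at P12 and 3.23 FPKM at P14. Its lowest values were thus the 2 P14 groups. The differences of P14 minus P12 were -0.57 in KIT and -0.70 in THY1 cells.

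Igf2r, the receptor that takes up and degrades insulin-like growth factor 2 and sorts lysosomal enzymes, was the most even of the 10. It had 43.0 FPKM in P0 OCT4-GFP, 36.8 FPKM in P7 OCT4-GFP, 40.4 FPKM in P7 ID4-GFP and 36.0 FPKM in P7 VASA THY1. KIT cells had 28.8 FPKM at P7, 40.6 FPKM at P12 and 29.7 FPKM at P14. THY1 cells had 72.5 FPKM at P0, 44.3 FPKM at P7, 41.4 FPKM at P12 and 22.7 FPKM at P14. Igf2r was therefore at 22.7 FPKM or more in all groups, and its sorted groups lay inside the range of the bead-enriched ones. None of the 13 comparisons gave it a log2 difference of 1 or more, the largest being P14 minus P12 in THY1 cells at -0.84. Airn, whose reading through Igf2r silences the paternal copy in body cells, ranged from 0.775 FPKM in P7 ID4-GFP to 17.6 FPKM in P0 THY1.

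Grb10, an adaptor that dampens insulin and IGF1 receptor signalling, had 19.3 FPKM in P0 OCT4-GFP, 14.5 FPKM in P7 OCT4-GFP, 7.78 FPKM in P7 ID4-GFP and 23.1 FPKM in P7 VASA THY1. KIT cells had 40.8 FPKM at P7, 23.1 FPKM at P12 and 29.5 FPKM at P14. THY1 cells had 217 FPKM at P0, 22.5 FPKM at P7, 24.6 FPKM at P12 and 22.8 FPKM at P14. THY1 cells thus lay between 22.5 and 24.6 FPKM from P7 on, beside a P0 value far above all other groups. Beside P0 THY1 the largest difference was KIT minus THY1 at P7, at 0.83, where Leydig cell markers also differed, their sum over 6 genes being 1100 FPKM in P7 KIT against 109 FPKM in P7 THY1 cells. The part of those cells in it was not tested.

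**Figure D2:**
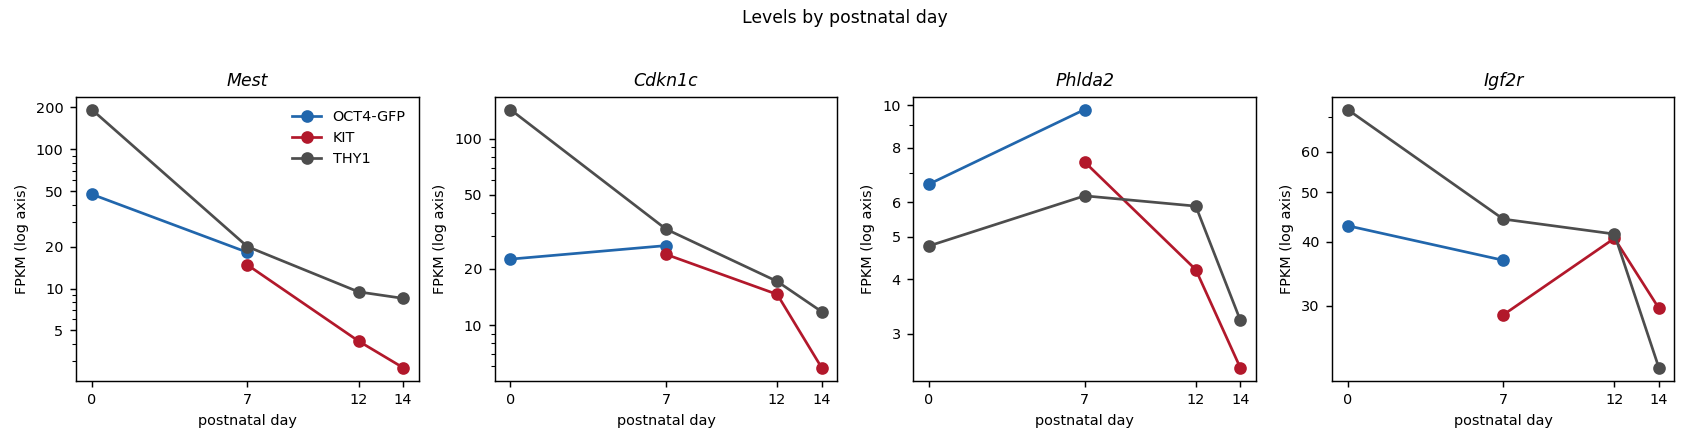
Levels of Mest, Cdkn1c, Phlda2 and Igf2r in FPKM (log axis) against postnatal day, with 1 line per selection (OCT4-GFP, KIT and THY1) and 1 value per point. Mest and Cdkn1c are lower at each later age in KIT and THY1 cells, while Cdkn1c is 22.6 FPKM at P0 and 26.7 FPKM at P7 in OCT4-GFP cells.

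Sorted germ cells at P0 differed from THY1 cells of the same age in most of these genes. A gene was counted at 4-fold if its log2 difference was at least 2 in size with 5 FPKM or more in the higher group, and at 2-fold if it was at least 1 with the same floor. Snrpn, with at most 2.16 FPKM, could never be counted, but it stays in the 10 and in the medians over the members. In P0 OCT4-GFP against P0 THY1, 5 of 10 genes were lower at 4-fold (Peg3, Plagl1, Ndn, Grb10 and Cdkn1c), where 5.61% of all 20889 genes were. At 2-fold 6 were lower, with Mest added at a difference of -2.00, just short of the 4-fold bound, beside 11.6% of all genes. Igf2r (-0.74) and Kcnq1ot1 (-1.56, under the floor) were lower and Phlda2 (0.40) higher, outside these counts. The median difference of the members was -2.31, and over all genes it was -0.05. The stroma sum was 84.0 FPKM in OCT4-GFP and 7143 FPKM in THY1 cells. Other cell types differed too: 6 of 6 peritubular myoid, 4 of 5 endothelial, 4 of 6 Leydig and 4 of 8 Sertoli markers were lower at 4-fold in OCT4-GFP cells. Of the 6 macrophage markers, 0 were. The part of these cells in the differences was not tested.

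The comparison of P7 THY1 with P0 THY1 uses the same P0 THY1 values, and most members were again lower than in P0 THY1. Peg3, Mest, Ndn, Grb10 and Cdkn1c were lower at 4-fold, 5 of 10 against 3.05% of all genes. Plagl1, at -1.85, joined them at 2-fold, 6 of 10 against 8.95%. With VASA THY1 as the P7 group the 4-fold count was also 5, but Ndn left it, at -1.82, and Plagl1 entered it, at -4.44. Kcnq1ot1 was 1 of 10 higher at 2-fold, at 1.03, against 3.3% of all genes, but its difference was -1.09 with VASA THY1 in place of P7 THY1. The median over the members was -1.98, beside -0.06 over all genes, and all 10 stroma markers were lower at 2-fold, their sum being 367 FPKM at P7 and 7143 FPKM at P0. At 4-fold, 5 of 6 peritubular myoid and 4 of 6 macrophage markers were lower too, and 0 of the Leydig, Sertoli and endothelial markers were. The part of these cells was not tested. Sorted OCT4-GFP cells gave other values for the same ages: 0 of 10 were counted at 4-fold, where 0.129% of all genes were in either direction. Mest alone was lower at 2-fold, beside 1.36% of all genes. The median over the members was -0.01 in OCT4-GFP cells, where the stroma sum was 121 FPKM at P7 and 84.0 FPKM at P0.

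**Figure D3:**
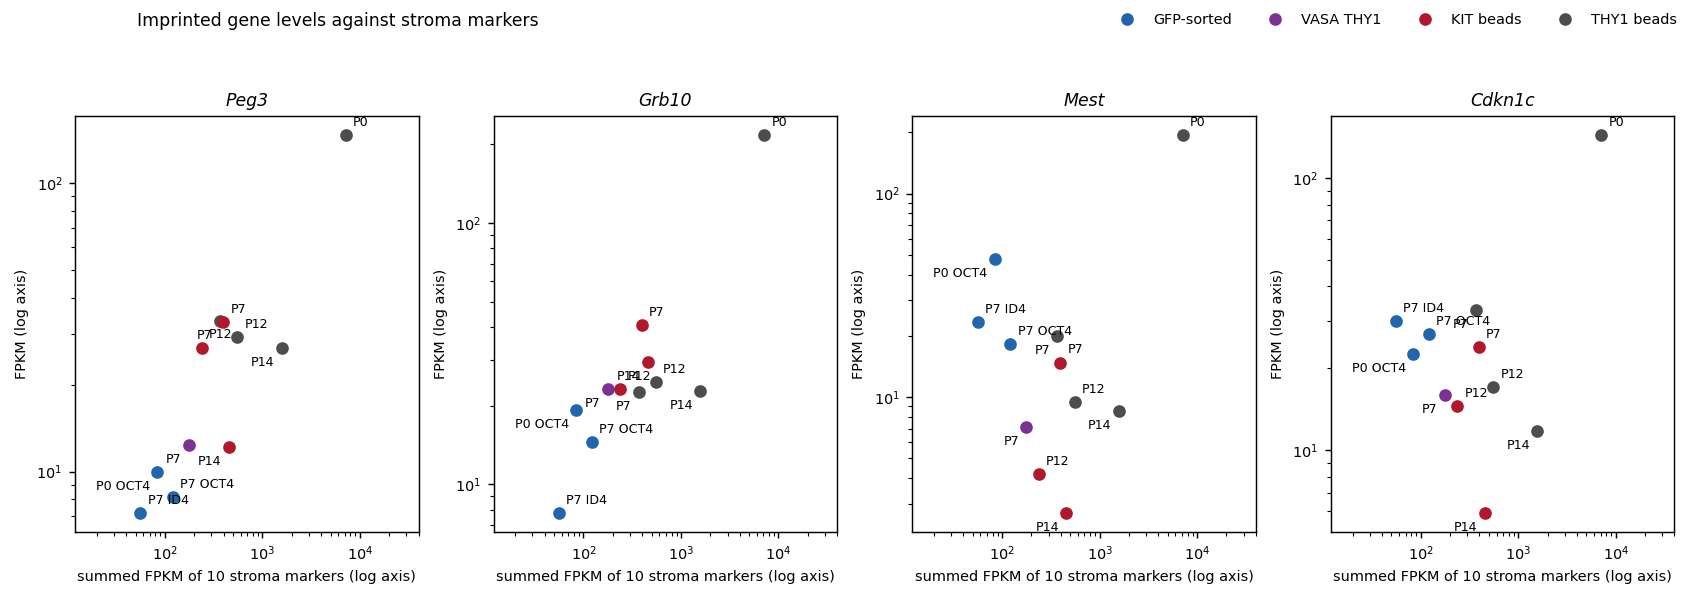
Levels of Peg3, Grb10, Mest and Cdkn1c in FPKM (log axis) against the summed FPKM of 10 fibroblast and stroma markers (log axis), 1 point per group, coloured by selection and labelled by age. P0 THY1, with a stroma sum of 7143 FPKM, is the highest point in all 4 panels, and in the Mest and Cdkn1c panels the sorted groups with the lowest stroma sums lie among the higher of the remaining points.

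Without P0 THY1 and P7 ID4-GFP, the groups farthest from the median stroma sum, levels of the members related to that sum in different ways over the remaining 9 groups. Pearson's r of log2(FPKM + 1) with the log2 stroma sum was 0.67 for Peg3, 0.76 for Ndn, 0.46 for Grb10 and 0.43 for Plagl1. It was -0.47 for Mest, -0.42 for Cdkn1c, -0.66 for Igf2r and -0.59 for Phlda2. Over all 11 groups the first 4 values were 0.89, 0.89, 0.86 and 0.78, and Mest, Cdkn1c and Igf2r turned to 0.30, 0.37 and 0.22. These are descriptions over groups that share ages, beads and libraries.

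At P7 the OCT4-GFP group held less Plagl1 and Kcnq1ot1 than THY1 cells, 2 of 10 lower at 4-fold beside 2.02% of all genes. Peg3 was added at 2-fold, giving 3 of 10 beside 5.64%. Differences of the other members ran from -0.60 for Grb10 to 0.58 for Phlda2, except Snrpn. Other cell types differed here too: in OCT4-GFP against THY1 cells, 4 of 6 macrophage markers were higher at 4-fold (sums of 147 FPKM in OCT4-GFP and 35.3 FPKM in THY1). At 4-fold, 5 of 8 Sertoli, 4 of 5 endothelial, 3 of 6 peritubular myoid and 2 of 6 Leydig markers were lower. Of the 10 stroma markers, 8 were lower at 2-fold and 2 at 4-fold (sums of 121 FPKM in OCT4-GFP and 367 FPKM in THY1). Plagl1 and Kcnq1ot1 were also lower at 4-fold in P7 VASA THY1 against P7 THY1, 2 of 10 beside 1.53%. Peg3 and Mest were added at 2-fold, 4 of 10 beside 4.95%. P7 THY1 is shared by both comparisons, so these are not separate observations. In VASA THY1 against THY1 cells all 5 endothelial markers were lower at 4-fold (sums of 6.29 FPKM in VASA THY1 and 115 FPKM in THY1), as were 4 of 6 Leydig markers (8.09 FPKM in VASA THY1 and 109 FPKM in THY1). Sertoli cell markers summed to 857 FPKM in VASA THY1 and 645 FPKM in THY1 cells over 8 genes, and stroma markers to 177 FPKM in VASA THY1 and 367 FPKM in THY1 cells. The part of these cells was not tested. P7 ID4-GFP and P7 OCT4-GFP cells did not differ by 4-fold or 2-fold in any member, 0 of 10 in each count, beside 0.316% and 0.742% of all genes. The largest difference there was Grb10, at -0.82.

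KIT and THY1 cells of one age were close for most members. At P7, 0 of 10 were counted at 4-fold (0.359% of all genes) and 0 at 2-fold (2.59%). At P12, 0 were counted at 4-fold (0.239%), and Mest was 1 of 10 lower in KIT cells at 2-fold (3.15%). At P14, 0 were counted at 4-fold (3.37%), and Peg3, Mest and Ndn were 3 of 10 lower in KIT cells at 2-fold (7.51%). At that age the median was -0.87 over the 6 paternally expressed genes, Snrpn included, and 0.05 over the 4 maternally expressed ones, beside 0.00 over all genes. The 2 classes overlapped. The maternally expressed genes had -0.89 (Cdkn1c), -0.27 (Phlda2), 0.36 (Grb10) and 0.37 (Igf2r), and the paternally expressed ones ran from -1.36 (Mest) to 0.30 (Kcnq1ot1). Stroma markers were also lower in P14 KIT than in P14 THY1 cells, with sums of 454 and 1571 FPKM.

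Between later ages few members passed the bounds. For P12 against P7, 0 of 10 were counted at 4-fold in KIT (0.551% of all genes) and in THY1 cells (0.656%). At 2-fold Mest and Ndn were 2 of 10 lower in KIT cells (1.94%) and Mest was 1 of 10 lower in THY1 cells (1.11%). For P14 against P12, KIT cells had 1 of 10 lower at 4-fold, Kcnq1ot1 (1.45%), and 4 of 10 lower at 2-fold, Peg3, Plagl1, Kcnq1ot1 and Cdkn1c (5.26%). THY1 cells had 0 at 4-fold (6.13%) and 2 of 10 lower at 2-fold, Plagl1 and Kcnq1ot1 (8.43%). No member was higher at 2-fold in any of these 4 comparisons. With VASA THY1 as the P7 THY1 group, however, Plagl1 and Kcnq1ot1 were higher at 4-fold in P12 THY1, at 2.25 and 2.09, and Plagl1 was higher in P7 KIT, at 2.43. The P14 groups have 1 library each and the P12 groups 2, and Sertoli cell markers were lower at P14, with sums of 74.9 FPKM in P14 KIT against 533 FPKM in P12 KIT and 38.3 FPKM in P14 THY1 against 1329 FPKM in P12 THY1. The part of these cells was not tested.

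**Figure D4:**
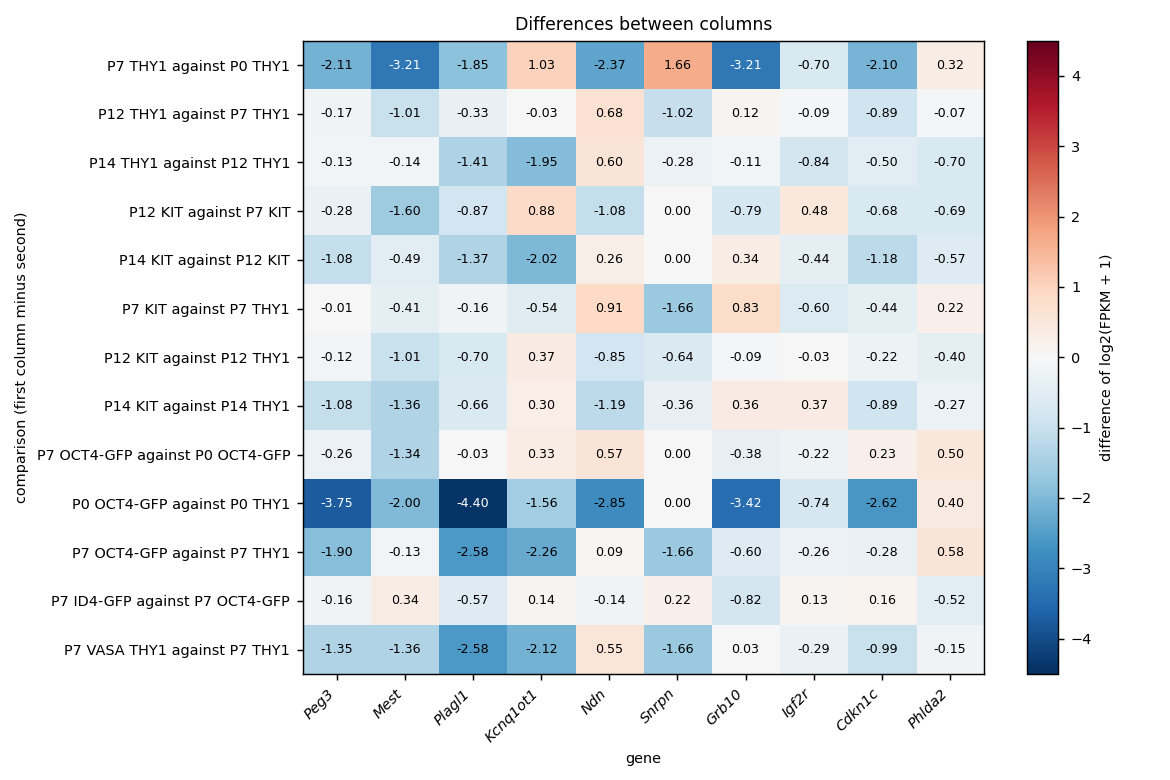
Difference in log2(FPKM + 1), first group minus second, of each of the 10 genes in each of the 13 comparisons, with no error because each group has 1 value. The rows that set P7 THY1 or P0 OCT4-GFP against P0 THY1 hold the strongest negative values, down to -4.40 for Plagl1.

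Genes that lie beside the members did not all differ as they did. Of 36 named neighbours 33 were in the table. In P0 OCT4-GFP against P0 THY1, 7 were lower and 2 higher at 2-fold, beside 11.6% and 7.68% of all genes, and the medians were -0.65 over the neighbours and -2.31 over the members. Zim1, a zinc finger gene next to Peg3, had 0.669 FPKM in OCT4-GFP against 21.1 FPKM in THY1 cells, and Airn had 2.37 FPKM in OCT4-GFP against 17.6 FPKM in THY1 cells. Cd81, a tetraspanin in the Kcnq1ot1 domain, had 47.8 FPKM in OCT4-GFP against 291 FPKM in THY1 cells, whereas Copg2, a coat protein gene beside Mest, was higher in OCT4-GFP cells, at 74.2 FPKM against 32.5 FPKM in THY1 cells. In P7 THY1 against P0 THY1, 6 of the 33 neighbours were lower and 1 higher at 2-fold, beside 8.95% and 3.3% of all genes, and their median was -0.55. The neighbours also include genes that are not imprinted, and they were chosen with earlier results known.

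Some genes of other imprinted loci were also lower in P0 OCT4-GFP than in P0 THY1 cells. Of 21 further genes at loci with a maternal germline region, 8 were lower and 1 higher at 2-fold in P0 OCT4-GFP against P0 THY1, where 11.6% and 7.68% of all genes were. Among the lower ones were Sgce (2.44 FPKM in OCT4-GFP against 30.9 FPKM in THY1), a sarcoglycan, and Gnas (71.6 FPKM in OCT4-GFP against 596 FPKM in THY1), which encodes a G protein subunit. Values higher in OCT4-GFP than in THY1 cells included Inpp5f (41.2 against 18.6 FPKM), Mcts2 (58.8 against 31.4 FPKM) and Cdh15 (14.3 against 6.75 FPKM). Of 9 genes at loci whose germline region is methylated in sperm, 6 were lower and none higher in P0 OCT4-GFP against P0 THY1, among them H19 (80.6 FPKM in OCT4-GFP against 1013 FPKM in THY1), a noncoding RNA, and Igf2 (8.81 FPKM in OCT4-GFP against 203 FPKM in THY1), the growth factor that Igf2r binds. The medians were -0.64 for the 21 genes and -1.89 for the 9 genes, beside -2.31 for the 10 members. At P14, Peg10, a retrotransposon-derived gene, had 2.27 FPKM in KIT cells against 17.6 FPKM at P12, and 3.02 FPKM in THY1 cells against 39.7 FPKM at P12. Peg10 also followed the split by number of libraries. It had 13.1 to 39.7 FPKM in groups made from 2 libraries and 2.27 to 6.61 FPKM in those made from 1. Age and number of libraries therefore cannot be told apart for it. Sertoli cell markers were also lower at P14 in both selections, and the part of those cells was not tested.

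Genes whose products write, read or erase imprints were described from a list of 16. In P0 OCT4-GFP against P0 THY1, 4 of 16 were lower and 3 higher at 2-fold, beside 11.6% and 7.68% of all genes. The higher ones were the maintenance factors Dnmt1 (222 FPKM in OCT4-GFP against 62.3 FPKM in THY1) and Uhrf1 (125 FPKM in OCT4-GFP against 27.2 FPKM in THY1) and the methyltransferase Dnmt3b (31.6 FPKM in OCT4-GFP against 5.56 FPKM in THY1). The lower ones were Tet1, Tet2 and Tet3, which oxidise methylated cytosine, and Zfp57 (3.98 FPKM in OCT4-GFP against 10.4 FPKM in THY1). Tet2 followed the split by number of libraries, at 4.57 to 11.4 FPKM in groups made from 2 and 0.515 to 1.62 FPKM in those made from 1. The stroma sums of these P0 groups were 84.0 FPKM in OCT4-GFP and 7143 FPKM in THY1 cells. The part of other cells in the higher and lower values was not tested. Dnmt3l, the cofactor that helps set methylation in fetal male germ cells and oocytes, had 2.29 FPKM in P7 OCT4-GFP against 7.64 FPKM in P0 OCT4-GFP, and 0.352 FPKM in P7 THY1 against 15.1 FPKM in P0 THY1. Trim28, the corepressor recruited by ZFP57, stayed between 130 and 303 FPKM in all 11 groups. Ctcfl, a testis paralog of the insulator protein CTCF, was the list's largest difference between KIT and THY1 cells, at 10.1 FPKM in KIT against 1.49 FPKM in THY1 cells at P12 and 22.4 FPKM in KIT against 4.77 FPKM in THY1 cells at P14.

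Some members varied together across groups. Over the 11 groups Pearson's r of log2(FPKM + 1) was 0.96 between Peg3 and Plagl1 and 0.92 between Mest and Cdkn1c. Without P0 THY1, over 10 groups, these were 0.94 and 0.82, and Cdkn1c and Phlda2 reached 0.88, against 0.44 with it. Plagl1 and Kcnq1ot1 reached 0.88 without P0 THY1, where both follow the split by number of libraries. Ndn and Igf2r were opposed there, at -0.75.

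The genes most like each member over the 11 groups, among the 14200, were in 1 case imprinted genes. For Peg3 they were Peg13, an imprinted noncoding RNA of another chromosome, and its neighbour Zim1, both at r = 0.98. For Plagl1 they were Tie1, a receptor of endothelial cells (0.99), and Prex2 (0.98). For Mest they were Txndc5, a protein of the endoplasmic reticulum, and Fblim1 (both 0.96), for Cdkn1c Pdzrn3 (0.97) and Gdf10 (0.96), and for Grb10 Prrg3 and Spats2l (both 0.97). For Kcnq1ot1 they were Slc35d1 and Setd2 (both 0.98), for Ndn Kdelc2 (0.98) and Defb25 (0.97), for Igf2r Cpm and Rgag4 (both 0.93), and for Phlda2 Cxxc5 and Fhl3 (both 0.92). Without P0 THY1 the first place changed for 6 of the 9, to Ahnak for Peg3 and Tm4sf1 for Plagl1, while Kcnq1ot1, Ndn and Phlda2 kept Slc35d1, Kdelc2 and Cxxc5. High values among so many genes over so few groups with shared libraries are a description of these groups.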

How the data were processed

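RNA from testis cells was depleted of ribosomal RNA and sequenced as directional libraries, per the labels' protocols. The submitters' processing notes list CASAVA, TopHat2 2.0.9, Cufflinks 2.1.1 and mm9, a mouse genome build. The annotation and the use of strand are not given in the sources used here. The authors deposited FPKM in a table of 20889 symbols and 11 columns, 1 for each group, and how the 16 RNA libraries were combined is not stated. Counts and depth are not in the table, so no intervals are given. The 8 bisulfite and 6 chromatin samples of the 30 were not analysed here.

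Differences of log2(FPKM + 1), with a pseudocount of 1, were computed for 13 comparisons with Python 3.11.15, numpy 2.4.6 and pandas 2.3.3, and checked on simulated data; plots used matplotlib 3.10.9. With 1 value per group no test was run, and each count of members is set beside the share of all genes counted by the same rule. The 10 members were named in every group, with neighbours and listed genes that passed a bound, and the 2 genes most like each member. The members and lists were chosen with earlier results of these data known. Relative depth was read from steps among genes under 0.05 FPKM. Alternatives were a pseudocount of 0.1, no FPKM floor, quantile normalization and exchanged groups.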

Additional observations from a re-analysis of the deposited data

Results flagged for a closer look

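Ndn moved in opposite directions in pairs of contrasts that share the same ages or selections, each by at least 0.5 on the log2(FPKM + 1) scale. P7 minus P0 was -2.37 in THY1 cells and 0.57 in OCT4-GFP cells, a gap of -2.94, and 2.04% of all genes were opposed in the same 2 contrasts. P12 minus P7 was -1.08 in KIT cells and 0.68 in THY1 cells, a gap of -1.76, beside 1.12% of all genes. KIT minus THY1 was 0.91 at P7 and -0.85 at P12, a gap of 1.76, beside 1.21%, and it was 0.91 at P7 and -1.19 at P14, a gap of 2.10, beside 2.15%. The last 3 share the P7 values of 29.0 FPKM for KIT and 15.0 FPKM for THY1. With VASA THY1 (22.4 FPKM) as the P7 THY1 group, P12 minus P7 in THY1 cells was 0.13 and KIT minus THY1 at P7 was 0.36, so these 3 oppositions no longer reached 0.5; P7 minus P0 was -1.82, and that opposition remained. None of these differences between contrasts was tested, since each rests on 1 value per group.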

How the results depend on the processing

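No paired analysis was possible because the table holds 1 value per group and no replicate numbers, and for the same reason no library could be left out. Counts of members at 4-fold differed in 9 pairings of a comparison with an alternative. In P14 against P12, THY1 cells had 1 with a pseudocount of 0.1 (Kcnq1ot1 at -2.40; 0 otherwise), and KIT cells had 0 under quantile normalization (Kcnq1ot1 at -1.65; 1 otherwise). P7 VASA THY1 against P7 THY1 had 1 under quantile normalization (Kcnq1ot1 at -1.99; 2 otherwise). With VASA THY1 as the P7 THY1 group, P12 against P7 had 2 (Plagl1 at 2.25 and Kcnq1ot1 at 2.09; 0 otherwise) and P7 KIT against THY1 had 1 (Plagl1 at 2.43; 0 otherwise). With OCT4-GFP in place of THY1, an exchange chosen after seeing the data, P7 against P0 had 0 members counted, against 5, and Ndn and Cdkn1c turned to 0.57 and 0.23. P0 OCT4-GFP against THY1 had 6, against 5, as Mest passed the bound with a pseudocount of 0.1 (-2.02) and under quantile normalization (-2.18), and P7 OCT4-GFP against THY1 had 3, against 2, as Peg3 passed it with the smaller pseudocount (-2.01). Of 130 single differences, 127 kept their side of the 4-fold bound with a pseudocount of 0.1, 130 with no floor and 127 under quantile normalization, and the sign turned in 0, 0 and 2 of them. With VASA THY1, 5 of 30 crossed the bound and 14 turned sign, among them 2 counted at 2-fold, Mest in P12 against P7 (0.36) and Kcnq1ot1 in P7 against P0 (-1.09). With OCT4-GFP, 5 of 10 kept their side and 2 turned sign. Quantile normalization moved the median of the 14200 genes to 0.17 from -0.07 in P0 OCT4-GFP against THY1, to 0.12 from -0.09 in P7 against P0 THY1, to 0.04 from -0.09 in P14 against P12 KIT, and to 0.13 from 0.02 in P14 KIT against THY1, where Phlda2 turned to 0.09 from -0.27. Depth limits low values, above all those of Plagl1, Kcnq1ot1 and Snrpn under 1 FPKM.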
